A study of Mus musculus with 8 samples.

Results

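The genes described here are 9 genes that give GABAergic interneurons of the neocortex their identity: Gad1, Gad2, Slc32a1, Lhx6, Dlx1, Dlx2, Dlx5, Dlx6 and Nxph1. They were chosen by name as genes of cells that arise outside the Emx1 lineage and were matched exactly to the gene symbols of the array annotation, and all 9 were found among the 19938 genes tested. RNA came from neocortical layers II to IV, cut by laser from mouse pups at postnatal day 2, and was hybridised to Affymetrix Mouse Gene 1.0 ST arrays, 1 array per pup. The mutant group held 4 pups of genotype Bcl11a flox/flox;Emx1 IRESCre/+, and the control group held 4 pups of genotype Bcl11a flox/+;Emx1 IRESCre/+. All pups of both groups therefore carried Cre at the Emx1 locus, and controls had 1 floxed allele of Bcl11a, so loss of both alleles was set against loss of 1 in the Emx1 lineage.

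Cortical interneurons are born in the ganglionic eminences of the subpallium and migrate tangentially into the cortex, whereas Emx1-expressing progenitors of the pallium give rise to the excitatory projection neurons and to much of the glia. The interneurons release GABA, which glutamate decarboxylases make from glutamate and the vesicular transporter Slc32a1 loads into synaptic vesicles. Their fate is set by homeobox genes of the Dlx family, which act early and broadly in the subpallium, and by Lhx6, a LIM homeobox gene of cells from the medial ganglionic eminence. Cre driven from Emx1 does not act in the interneuron lineage, so the interneurons of a mutant pup should keep their own Bcl11a alleles intact while their projection neuron neighbours do not. The comparison asked whether transcripts of these untargeted cells differ in the mutant layers.

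The promoter windows of the 2 genes that passed the test, Dlx1 and Nxph1, and 1 window of Lhx6 are printed as RefSeq sequence of build GRCm38.p6. Each runs 5′ to 3′ on the gene's own strand from 250 bases before to 50 bases after a transcription start, with Dlx1 at chr2:71529195-71529494 (plus strand), Nxph1 at chr6:8949769-8950068 (plus strand) and Lhx6 at chr2:36105359-36105658 (minus strand). Capitals mark matches on either strand to CCAAT, to the GC box GGGCGG, to TAATTA, a core that homeodomain proteins bind, and to TGACCA, the core that human BCL11A is known to bind. The values of Lhx6 and of Slc32a1 also did not overlap between the genotypes. Of the Lhx6 windows, the one printed is the only one with TGACCA. The Slc32a1 window, with 0 matches to these motifs, is not printed.
Dlx1: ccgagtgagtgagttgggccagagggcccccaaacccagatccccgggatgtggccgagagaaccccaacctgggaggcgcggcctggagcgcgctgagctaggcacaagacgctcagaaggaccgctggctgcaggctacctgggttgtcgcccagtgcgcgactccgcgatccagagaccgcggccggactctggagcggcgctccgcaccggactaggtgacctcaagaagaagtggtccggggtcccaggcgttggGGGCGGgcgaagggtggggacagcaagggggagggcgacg
Nxph1: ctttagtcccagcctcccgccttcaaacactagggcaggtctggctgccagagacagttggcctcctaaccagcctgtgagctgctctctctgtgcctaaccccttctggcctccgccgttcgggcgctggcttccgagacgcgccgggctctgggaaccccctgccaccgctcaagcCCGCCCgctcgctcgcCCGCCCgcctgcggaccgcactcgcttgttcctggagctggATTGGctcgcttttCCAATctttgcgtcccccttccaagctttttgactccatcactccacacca
Lhx6: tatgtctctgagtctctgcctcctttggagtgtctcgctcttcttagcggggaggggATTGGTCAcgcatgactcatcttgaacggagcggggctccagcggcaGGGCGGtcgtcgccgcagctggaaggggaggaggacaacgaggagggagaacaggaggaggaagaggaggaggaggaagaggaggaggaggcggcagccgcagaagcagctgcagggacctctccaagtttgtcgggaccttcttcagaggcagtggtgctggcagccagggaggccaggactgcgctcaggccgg

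The promoter table held 9 windows for 7 of the 9 genes, 3 of them for Lhx6, and Dlx5 and Dlx6 are named only. TGACCA lay in 1 of the 9 windows, the printed one of Lhx6, where it overlaps a CCAAT match, both read on the strand opposite to the gene, and in 13.57% of all 32851 windows of the table. TAATTA lay in 0 of the 9 windows and in 5.29% of all windows. CCAAT was present in 5 of 9 windows and in 37.4% of all, and GGGCGG in 6 of 9 and in 35.7% of all. The GC content of the 9 windows ran from 48.7% to 69.3%, beside a median of 52.7% over all windows. These matches describe letters in 300 bases around a start and say nothing of binding.

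Values are log2 expression as deposited, taken as already normalized between arrays, whose medians lay between 4.83 and 4.91. Bcl11a itself read 8.56, 8.85, 8.37 and 8.75 in mutants and 10.59, 10.52, 10.34 and 10.34 in controls (log2 difference -1.82, SE 0.10, limma adjusted p = 4.9e-07), so the labels and the targeted gene went the same way and signal remained in the mutants. The position of the Bcl11a probe set relative to the floxed exon was not analysed here. Control 1 had the lowest array weight of the 8 arrays, 0.556. Xist was high in 1 of 4 mutants and 2 of 4 controls (at least 8.89, against at most 3.81 elsewhere), so both sexes were present in each group. The 95th percentile of the mean levels of 1194 olfactory and vomeronasal receptor genes, 4.26, served as an empirical background, and all 9 interneuron genes lay above it.

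In the mutant layers Dlx1 and Nxph1 fell, 0 of the 9 genes rose, and 7 did not pass an adjusted p of 0.05 in limma's moderated test over all genes. Of all 19938 genes, 1.79% fell and 2.36% rose by the same rule, 4.15% in either direction. The difference, mutant minus control, was below 0 for 8 of the 9 genes and above 0 for Dlx6, while 42.5% of all genes had a difference below 0. The median difference of the 9 genes was -0.20 on the log2 scale, which is a level 13.0% lower in mutants if the logarithm is of base 2, beside a median of 0.02 over all genes. At an unadjusted p under 0.05, 7 of the 9 genes were lower and 0 were higher, beside 13.99% of all genes in either direction. In bulk tissue, fewer interneurons and less RNA per interneuron cannot be told apart.

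**Figure D1:**
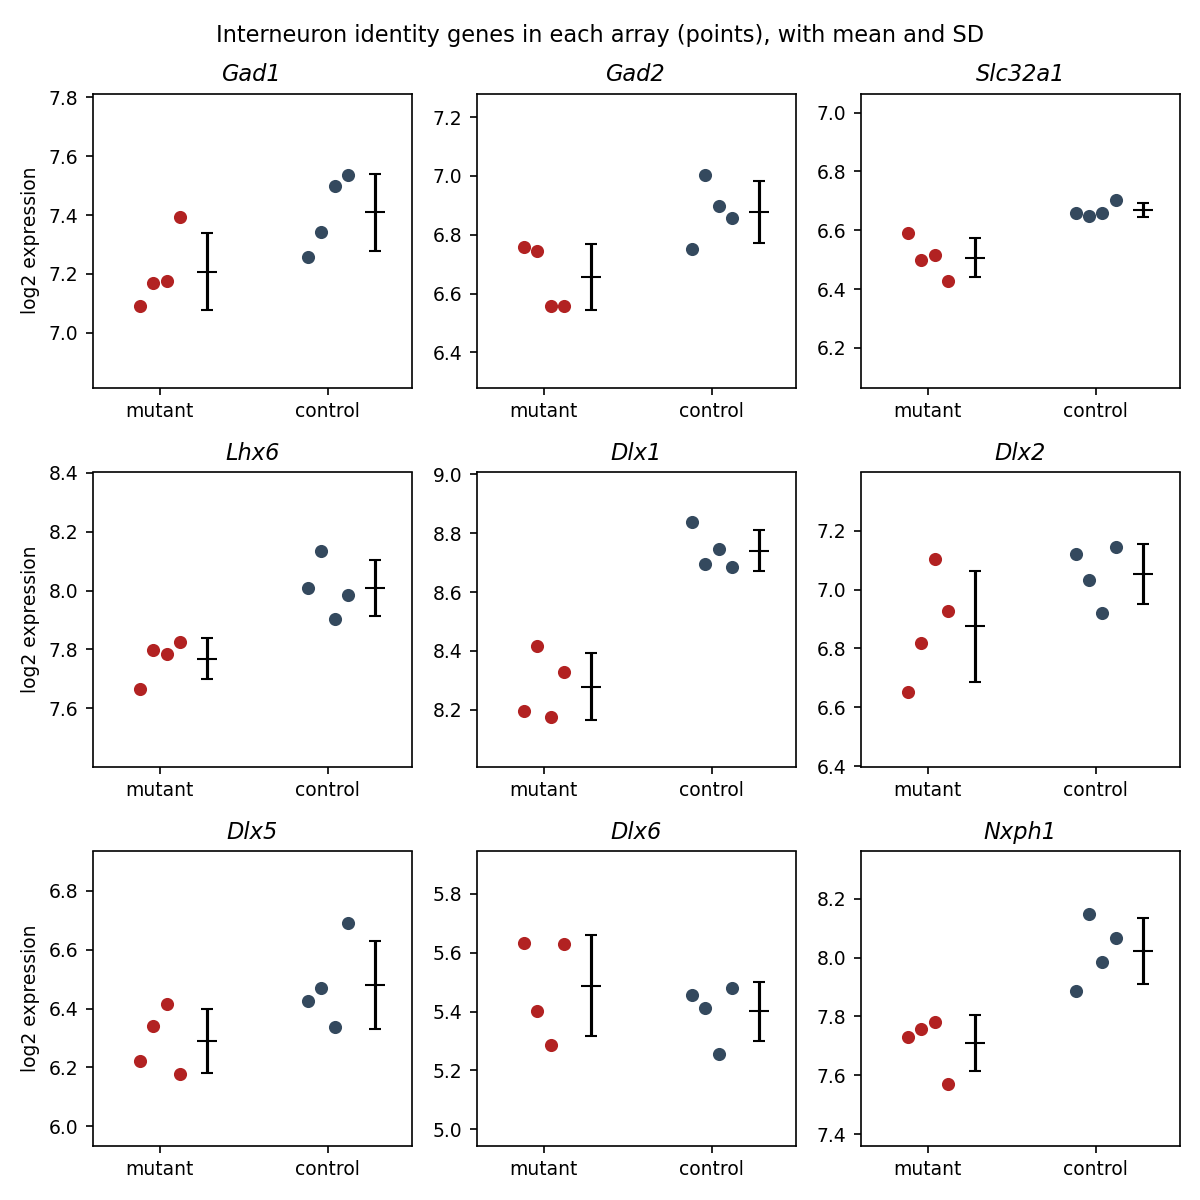
Log2 expression of the 9 genes in each of the 4 mutant and 4 control arrays (points, 1 per pup), with the mean and SD of each group beside them; every panel spans 1 log2 unit. Mutant and control points do not overlap for Slc32a1, Lhx6, Dlx1 and Nxph1, and they overlap for the other 5 genes.

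Among the transcription factor genes, Dlx1 had the largest difference. Dlx1 is a homeobox gene needed for the differentiation and later survival of interneuron subsets. It read 8.19, 8.42, 8.17 and 8.33 in mutants, against 8.84, 8.69, 8.75 and 8.68 in controls. Every mutant lay below every control, and the gap between the highest mutant and the lowest control exceeded the SD of either group. The means were 8.28 ± 0.11 in mutants and 8.74 ± 0.07 in controls (SD, n = 4 each), a log2 difference of -0.46 (SE 0.07, 95% interval -0.62 to -0.31, limma adjusted p = 0.00189), or 27.4% lower. The exact two-sided permutation p was 0.0286, the smallest that 4 arrays against 4 can give.

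Dlx2 lies next to Dlx1 on chromosome 2 and acts redundantly with it in the subpallium. Its values were 6.65, 6.82, 7.10 and 6.93 in mutants and 7.12, 7.03, 6.92 and 7.14 in controls. The groups overlapped, with mutant 3 above 2 of the controls, and the log2 difference of -0.18 did not pass (SE 0.09, limma adjusted p = 0.431) and was -0.10 without mutant 1. Dlx1as, a transcript antisense to Dlx1 that was named after its values had been seen, had a log2 difference of -0.26 (SE 0.09, limma adjusted p = 0.156), with means of 6.34 ± 0.17 in mutants and 6.60 ± 0.10 in controls (SD, n = 4 each). For Dlx1as every mutant lay below every control, by a narrow margin. Whether the probe sets of Dlx1 and Dlx1as read the strands separately was not analysed here.

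Dlx5 and Dlx6 form the second neighbouring pair, on chromosome 6, and are switched on after Dlx1 and Dlx2 in the interneuron lineage. Dlx5 read 6.22, 6.34, 6.42 and 6.18 in mutants and 6.43, 6.47, 6.34 and 6.69 in controls. Mutants 2 and 3 lay at or above control 3, the lowest control, so the groups overlapped, and the log2 difference was -0.19 (SE 0.08, limma adjusted p = 0.324), or -0.12 without control 4. Dlx6 read 5.63, 5.40, 5.29 and 5.63 in mutants and 5.45, 5.41, 5.26 and 5.48 in controls. It was the one gene of the 9 with a higher mean in mutants, by 0.09 (SE 0.09, limma adjusted p = 0.765), and mutants 1 and 4 lay above all controls while mutants 2 and 3 lay among them. With 1 array left out the Dlx6 difference was 0.04 without mutant 1, mutant 4 or control 3, and 0.15 without mutant 3. The long noncoding RNA gene Dlx6os1 spans Dlx6 in the annotation, and its share in the Dlx6 signal was not analysed here.

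Whether neighbours or paralogs changed unequally was tested on their difference within each array, for 3 pairs. The Dlx1 minus Dlx2 difference changed by -0.28 between mutants and controls (exact two-sided permutation p = 0.0857, adjusted p = 0.257 over the 3 pairs). The Dlx5 minus Dlx6 difference changed by -0.28 (exact permutation p = 0.171, adjusted p = 0.257) and the Gad1 minus Gad2 difference by 0.02 (exact permutation p = 0.914, adjusted p = 0.914). The smallest exact permutation p that the 70 splits can give is 0.0286. After adjustment over the 3 pairs a single pair could therefore not pass 0.05, however unequal its change. The adjusted values thus cannot decide whether any single pair changed unequally. Before adjustment none of the 3 pairs had a permutation p under 0.05, and the ranges of the mutants and controls overlapped in each.

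Lhx6, which directs the parvalbumin and somatostatin classes of interneurons, read 7.67, 7.80, 7.78 and 7.82 in mutants and 8.01, 8.14, 7.90 and 7.99 in controls. All mutants lay below all controls, by a narrow margin. The means were 7.77 ± 0.07 in mutants and 8.01 ± 0.10 in controls (SD, n = 4 each), and the log2 difference of -0.24 (SE 0.07, 95% interval -0.39 to -0.09) did not pass over all genes (limma adjusted p = 0.0810). It passed only when the dimmest 50% of genes were left out, which lowers the number of tests (limma adjusted p = 0.0485).

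**Figure D2:**
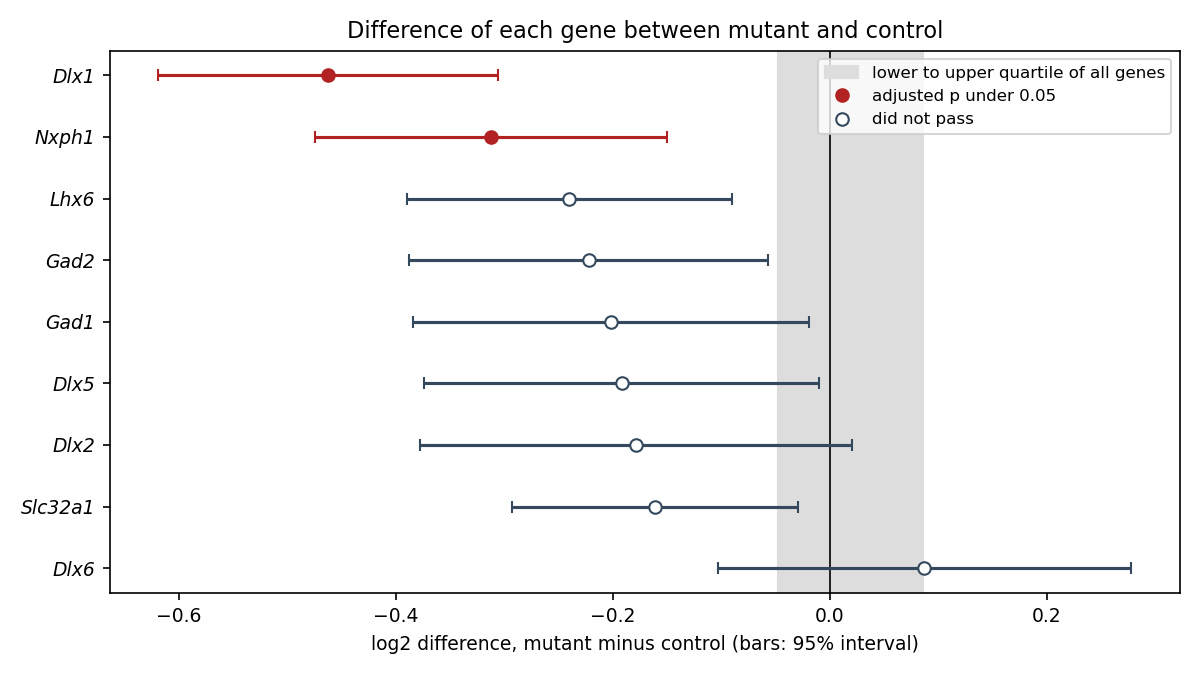
Log2 difference, mutant minus control, of each of the 9 genes with its 95% interval, ordered by size; filled points passed an adjusted p of 0.05 and the grey band runs from the lower to the upper quartile of all genes tested (-0.05 to 0.09). The intervals of 7 genes lie wholly below 0, and those of Dlx2 and Dlx6 include it.

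The genes of GABA synthesis and vesicle loading did not pass, and their values leaned to the same side. Gad1 encodes the glutamate decarboxylase that makes most of the GABA in the brain. It read 7.09, 7.17, 7.18 and 7.39 in mutants and 7.26, 7.34, 7.50 and 7.54 in controls (log2 difference -0.20, SE 0.08, limma adjusted p = 0.289). Mutant 4 was the one mutant within the control range. Gad2, the decarboxylase tied to synaptic vesicles, read 6.76, 6.74, 6.56 and 6.56 in mutants and 6.75, 7.00, 6.90 and 6.86 in controls (log2 difference -0.22, SE 0.08, limma adjusted p = 0.163). Here the overlap came from mutant 1, which lay just above control 1. Slc32a1 read 6.59, 6.50, 6.51 and 6.43 in mutants and 6.66, 6.65, 6.66 and 6.70 in controls. The groups did not overlap, and the controls were tightly grouped (6.67 ± 0.02, against 6.51 ± 0.07 in mutants, SD, n = 4 each), but the log2 difference of -0.16 was small (SE 0.06, limma adjusted p = 0.222).

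Nxph1 encodes neurexophilin 1, a secreted ligand of alpha-neurexins that interneurons of the cortex express. It fell, with 7.73, 7.76, 7.78 and 7.57 in mutants, against 7.89, 8.15, 7.98 and 8.07 in controls. No mutant reached the control range. The means were 7.71 ± 0.09 in mutants and 8.02 ± 0.11 in controls (SD, n = 4 each), a log2 difference of -0.31 (SE 0.08, 95% interval -0.47 to -0.15, limma adjusted p = 0.0323), or 19.4% lower. The call was less firm than that of Dlx1: 7 of the 8 fits with 1 array left out lost it, the exception being the fit without control 1 (limma adjusted p from 0.0508 to 0.108). Nxph1 is the only one of the 9 genes with a second probe set of its own and a dim one, which read 4.98, 4.78, 5.09 and 5.03 in mutants and 5.12, 4.99, 4.89 and 5.05 in controls. That probe set had a log2 difference of -0.05 (SE 0.08, limma adjusted p = 0.888 over all probe sets), and with the mean of both the Nxph1 difference was -0.18 (limma adjusted p = 0.187).

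Counting arrays rather than tests, 4 of the 9 genes (Slc32a1, Lhx6, Dlx1 and Nxph1) had every mutant below every control and 0 had the opposite, where 3.79% of all genes were separated in that direction and 5.46% in the other, 9.25% in all. The mean over the 9 genes was 6.95, 6.99, 6.98 and 6.98 in mutants and 7.16, 7.21, 7.13 and 7.24 in controls. These means did not overlap, and the mutants lay closer together than the controls. Dlx1 alone kept its call under each of the 19 alternative settings, with adjusted p from 6.49e-04 to 0.0434.

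Within a genotype the 9 genes did not move together from pup to pup. After the mean of its genotype had been subtracted from each array, Pearson's r over the 8 arrays ran from -0.72 to 0.66 for the 36 pairs of genes, with a median of -0.003, and 17 pairs were above 0. This is a description of 8 arrays whose deviations were small. The mean deviation of the 9 genes ran from -0.05 (control 3) to 0.05 (control 4). The 10 genes whose deviations were most like that mean, out of 13248 ranked, were Tbc1d13, Tubb5, Fasn, Ak1, Smap2, Got2, Zfp90, Agap3, Slc5a6 and Mrpl4, with r from 0.95 to 0.98 over 8 arrays. High values are unavoidable at the top of so long a ranking, 0 of these 10 genes belong to a list of cell type genes used here, and 0 passed the test between genotypes.

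**Figure D3:**
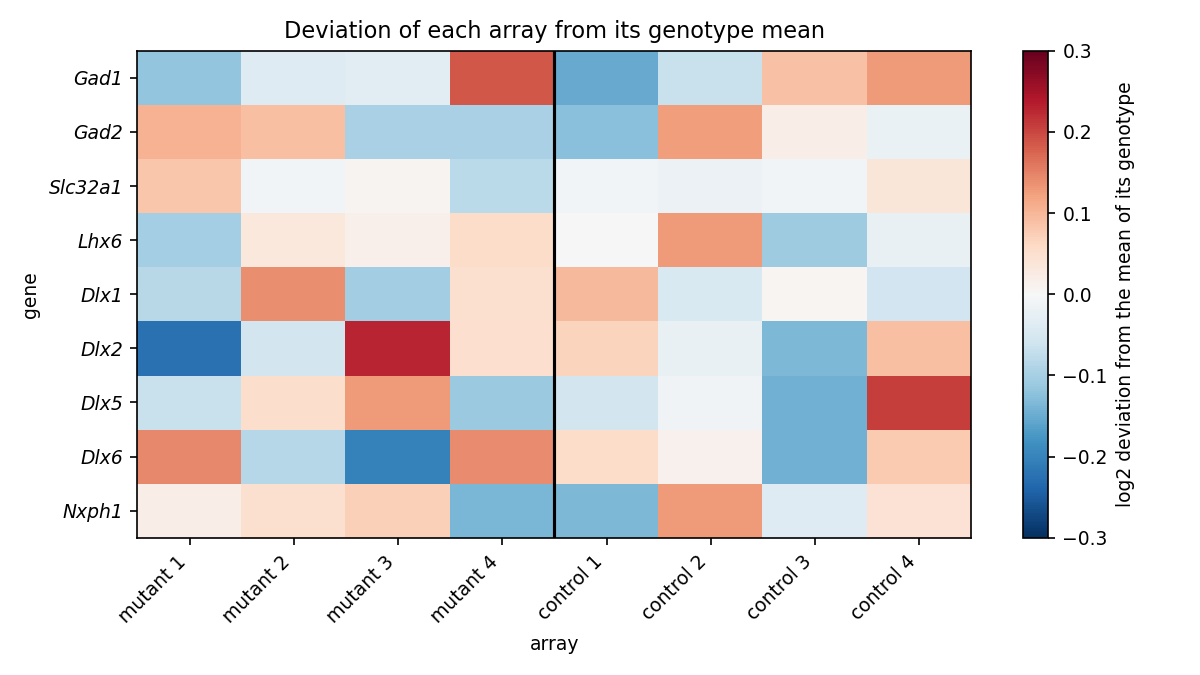
Deviation of each array from the mean of its own genotype, in log2 units, for the 9 genes (rows) and the 4 mutant and 4 control arrays (columns); red is above and blue below the mean. No array is of one colour throughout, and the mean over the 9 genes stays between -0.05 and 0.05.

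The wider program of interneurons was followed in 4 further lists. Of 49 genes measured from 53 listed, 3 fell, 3 rose and 43 did not pass, and the median log2 difference was -0.07. The transcription factors of the ganglionic eminences and of migrating interneurons gave 0 calls among 15 measured genes, with a median of -0.03. The largest differences among them were those of Satb1, a chromatin organizer of maturing interneurons that projection neurons also express, at -0.50 (SE 0.15, limma adjusted p = 0.100), and Nr2f1, a nuclear receptor of caudal interneurons and of cortical areas, at 0.32 (SE 0.14, limma adjusted p = 0.309). Satb1 passed with the replicate number as a block (limma adjusted p = 0.00118), without mutant 1 (0.0357) and without control 2 (0.0470), and Nr2f1 was 0.15 without control 1. Maf, a factor of medial interneurons named after its values had been seen, had a difference of -0.27 (SE 0.07, limma adjusted p = 0.0604) with no overlap between 7.94 ± 0.11 in mutants and 8.21 ± 0.09 in controls (SD, n = 4 each). The other 13 genes of the list ran from -0.27 (Maf) to 0.06 (Lhx8). Zeb2, a factor of migrating interneurons that projection neurons also express, had -0.26 with every mutant below every control (limma adjusted p = 0.140). Sox6, Nr2f2 and Gsx2 had -0.18, -0.17 and -0.15, Gsx2 at or below background, and Sp8 had -0.09. For Nr2f2, control 1 at 6.36 lay below all mutants, and the other controls lay above them. Prox1, Npas1, Nkx2-1, Gsx1, Npas3 and Sp9 lay between -0.03 and 0.05.

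Among 18 genes of interneuron subtypes, Npy and Reln fell, 0 rose and 16 did not pass, with a median of -0.08. Npy, a neuropeptide gene of interneurons, read 7.91, 6.90, 6.58 and 7.15 in mutants and 9.27, 8.67, 8.62 and 8.49 in controls (log2 difference -1.63, SE 0.23, limma adjusted p = 9.39e-04). Its control mean was 3.09-fold above its mutant mean, and the groups did not overlap. The Npy call was lost without variance moderation (limma adjusted p = 0.0989). Reln, the secreted glycoprotein of Cajal-Retzius cells and of some interneurons, read 7.88, 7.38, 7.58 and 7.80 in mutants and 7.84, 8.50, 8.30 and 8.27 in controls (log2 difference -0.57, SE 0.13, limma adjusted p = 0.0279), with control 1 inside the mutant range. The Reln call was also lost without variance moderation (limma adjusted p = 0.255) and in 5 of the 8 fits with 1 array left out, those without mutant 2 or 3 or control 2, 3 or 4 (limma adjusted p up to 0.101). Of the 7 Cajal-Retzius genes only Reln passed, and 4 differences were below 0. The others were Ndnf at -0.45 with every mutant below every control, Calb2 at 0.86 with every mutant above every control, Ebf3 at -0.06, Trp73 at -0.01, Lhx5 at 0.04 and Lhx1 at 0.12.

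Sst, the somatostatin gene, averaged 6.87 ± 0.13 in mutants and 7.13 ± 0.41 in controls (SD, n = 4 each; log2 difference -0.26, limma adjusted p = 0.521). It read 6.70, 6.89, 6.87 and 7.00 in mutants and 6.54, 7.39, 7.18 and 7.40 in controls. Control 1 lay below all mutants, and the other controls lay above them. Vip had a difference of 0.04. The calcium-binding protein gene Calb2 read 7.61, 7.23, 7.26 and 7.36 in mutants and 5.38, 6.72, 6.87 and 7.06 in controls. Its control 1 stood far below the rest, and the difference of 0.86 did not pass (SE 0.27, limma adjusted p = 0.122), but without control 1 it was 0.48 and passed (limma adjusted p = 0.0157). Ndnf, a gene of layer I interneurons and of Cajal-Retzius cells, had a difference of -0.45 (SE 0.14, limma adjusted p = 0.108). It was -0.27 without control 2 (limma adjusted p = 0.0887) and passed at -0.53 without control 1 (limma adjusted p = 0.0483). Pvalb, Lamp5, Tac1, Crh and Chrna2 lay at or below the empirical background, so that no level was measured for the parvalbumin marker at this age.

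The surface and migration genes of interneurons went both ways, with 2 rises, 1 fall and 8 of 11 not passing. Ackr3, an atypical receptor of the chemokine Cxcl12 in migrating interneurons and also in projection neurons, rose, with 5.45, 5.40, 5.43 and 5.37 in mutants and 4.61, 4.82, 4.65 and 4.99 in controls (log2 difference 0.65, SE 0.08, limma adjusted p = 3.98e-04). Its partner Cxcr4, named after its values had been seen, had a difference of -0.17 (limma adjusted p = 0.346), with every mutant below every control by a narrow margin. Robo1, a Slit receptor that projection neurons express too, rose by 0.92 (SE 0.12, limma adjusted p = 6.25e-04), and Kcnc2, a potassium channel gene of fast-spiking cells, fell by 0.48 (SE 0.11, limma adjusted p = 0.0236). The semaphorin receptor genes Nrp1 and Nrp2 had differences of -0.47 and -0.38 (limma adjusted p = 0.0955 and 0.566). Without mutant 1 the Nrp1 difference was -0.61 and passed (limma adjusted p = 0.00686), and that of Nrp2 was -0.23 without mutant 2, -0.25 without control 4 and -0.66 without control 1. Erbb4, the neuregulin receptor of interneurons, chosen for mention like Cxcr4, had -0.22 (limma adjusted p = 0.227). Of the 8 fits with 1 array left out, 4 lost the Kcnc2 call, namely those without mutant 1, mutant 4, control 2 and control 3. Without variance moderation Robo1 and Kcnc2 lost their calls (limma adjusted p = 0.0705 and 0.221). Kcnc2 also lost its call with inferred sex as a covariate (limma adjusted p = 0.0521).

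Of 5 genes of GABA uptake and breakdown, Slc6a11 rose and 4 did not pass. Slc6a11, a GABA transporter found mainly on astrocytes, read 10.32, 10.39, 10.17 and 10.25 in mutants and 9.38, 9.60, 9.75 and 9.86 in controls (log2 difference 0.64, SE 0.10, limma adjusted p = 0.00137). All mutants were above all controls, but the call was lost without variance moderation (limma adjusted p = 0.0714). Slc6a13, a transporter of the meninges and vessels, and Aldh5a1, which clears the product of GABA breakdown, had differences of -0.16 and 0.11 (limma adjusted p = 0.572 and 0.644). Slc6a13 was -0.10 without control 2 and -0.26 without control 4, and Aldh5a1 was 0.03 without control 1. The astrocyte list of 8 genes held 0 calls in the same arrays, with a median of -0.16.

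**Figure D4:**
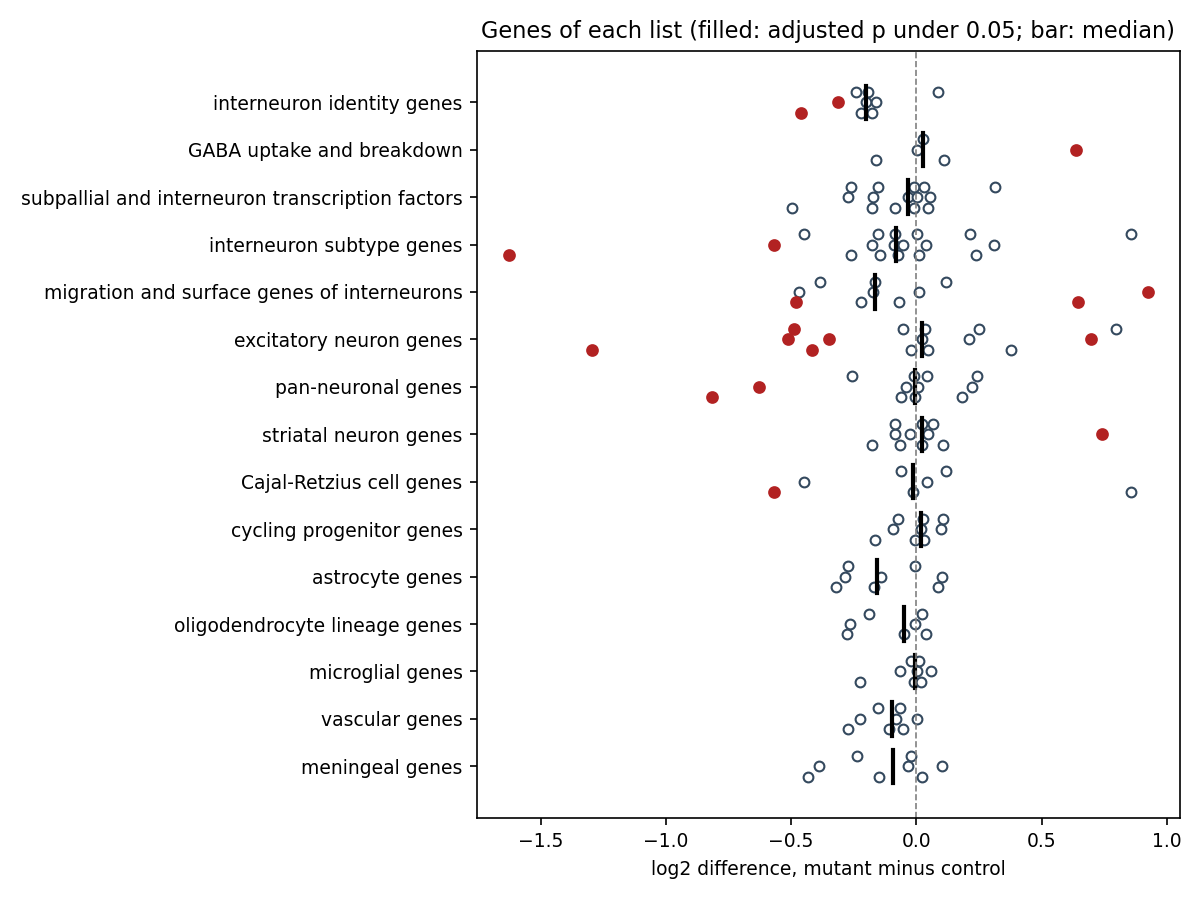
Log2 difference, mutant minus control, of every measured gene of each list (points), with the list's median as a bar; filled points passed an adjusted p of 0.05. The interneuron identity genes have a median of -0.20 and sit within a narrow range, while the excitatory neuron genes spread from -1.29 to 0.80 around a median of 0.02.

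Markers of the other cells that the dissected layers could hold were read from the same arrays. Of 15 excitatory neuron genes, 5 fell, 1 rose and 9 did not pass (median 0.02), and of 12 pan-neuronal genes, 2 fell, 0 rose and 10 did not pass (median -0.01). Per array, the mean of the pan-neuronal list ran from 9.96 to 10.02 in mutants and from 10.01 to 10.15 in controls. The striatal list was chosen for subpallial tissue, which also expresses Gad and Dlx genes, and how specific its genes are to that tissue was not tested. In that list Rarb rose (log2 difference 0.74, SE 0.08, limma adjusted p = 1.48e-04) and 10 of 11 did not pass, with a median of 0.02, and 9 of the 11 lay above the empirical background. Drd1, a dopamine receptor gene of striatal neurons, was above it and averaged 5.82 ± 0.08 in mutants and 5.91 ± 0.20 in controls (SD, n = 4 each), while Drd2 and Isl1 were at or below it. The mean of that list ran from 5.43 to 5.46 in mutants and from 5.35 to 5.45 in controls.

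The lists of astrocytes, oligodendrocyte lineage, microglia, vessels, meninges and cycling progenitors each held 0 genes past the threshold, with medians from -0.16 (astrocytes) to 0.02 (cycling progenitors), and 5 of the 8 microglial genes lay at or below background. The vascular list had 7 of 8 differences below 0 with a median of -0.10, and its mean ran from 6.54 to 6.74 in mutants and from 6.72 to 6.80 in controls. In 2 of its 8 genes, Kdr and Flt1, every mutant lay below every control, and 0 had the opposite, beside 3.79% and 5.46% of all genes. Their log2 differences were -0.27 and -0.23 (limma adjusted p = 0.0822 and 0.123). The meningeal list had 6 of 8 below 0 with a median of -0.09, and its mean ran from 5.13 to 5.47 in mutants and from 5.29 to 5.66 in controls. The part of these shifts in the lower level of the interneuron genes was not tested.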

How the data were processed

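Total RNA of 4 mutant and 4 control pups was measured, 1 array per pup. Per the labels, the submitters worked with BRB-ArrayTools. The range and near-equal medians of the deposited values led to their being read as log2 expression, normalized between arrays by the authors. How background, normalization and summarisation were handled, and in which base logarithms were taken, is not given in the sources used here, and another base would change the percentages but not the tests. Probe sets with 1 symbol in the platform annotation (21789 of 35556) were kept, and the brightest was taken for the 999 genes with several. Genotype was fitted for all 19938 genes with limma 3.58.1 in R 4.3.3, with moderated variances (6.91 prior degrees of freedom) and Benjamini-Hochberg adjustment over all genes. Differences are mutant minus control, and rose or fell means an adjusted p under 0.05. Single values were also tested by exact permutation over the 70 splits (scipy 1.17.1). The median SE was 0.08, and the number of arrays limits the precision. Where nothing says that pups came from separate litters, p-values measure the spread between these pups.

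The 9 genes and the lists were chosen with earlier results of these data known. The text names the 9 genes, Bcl11a, every list gene past the threshold, for the 4 interneuron lists also the 2 largest differences among genes above background that did not pass, and the 10 genes most like the 9 in their deviations. All other genes were named with their values known. The fit was tested on simulated data for 19938 genes, where 55 of 67 true log2 changes of 0.5 and 67 of 67 of 1 were found. Of the 199 calls there, 11 were false. Changes below 0.5, such as those of all 9 genes, were not simulated, and the noise was independent between arrays. The simulation therefore does not tell how often changes of their size are found. Replicate numbers are shared between the groups, and same-numbered arrays deviated together, if weakly (r from 0.06 to 0.30 over genes). The main fit held genotype alone and did not treat them as pairs. Whether same-numbered pups share a litter or a batch was not tested. Alternatives covered normalization, filters, probe sets, weights, variances, a replicate block, each array left out, and, added after seeing the data, inferred sex.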

Additional observations from a re-analysis of the deposited data

Results flagged for a closer look

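None of the 9 interneuron identity genes had an array standing apart from the other 3 of its group by Dixon's test. Over 33 named genes in 2 groups of 4 arrays each, 4 of 66 groups had such an array, and chance alone gives about 1 in 20. Slc17a6, a vesicular glutamate transporter, read 8.41 in mutant 2, against 8.15 to 8.19 in the other mutants. Slc6a13 read 4.67 in mutant 4, against 4.38 to 4.41 in the other mutants. Ndnf read 5.97 in control 2, against 5.19 to 5.32 in the other controls. Cux1, an upper-layer homeobox gene, read 9.73 in control 3, against 9.65 to 9.66 in the other controls.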

How the results depend on the processing

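Across 19 alternatives, of which the covariate for inferred sex was chosen after seeing the data, each of the 9 genes kept the sign of its difference wherever it was tested, and 0 of the differences reversed among the 33 genes run under the alternatives, which are the 9, Bcl11a and the list genes named by rule. Other genes named in the text were not run under them. Dim filtering at 50% removed Dlx6. The count of identity genes that fell was 2. It was 1 with the mean of probe sets, 1 without variance moderation, and from 1 to 2 when each array was left out in turn, where Nxph1 was lost without mutant 1, 2, 3 or 4 or control 2, 3 or 4. It was 2 with the replicate block, although under the block 422 genes in all fell and 565 rose, against 357 and 470 without it. As a hint from the data, 6 of the 8 arrays deviated most like the array of their own number. The count was 3 without the dimmest 50% of genes and 2 with inferred sex as a covariate. The median difference of the 9 genes ran from -0.24 (without control 1) to -0.16 (without control 4). Without variance moderation 126 genes fell and 123 rose in all, and in the lists other than the 9 genes 4 fell and 3 rose, against 10 and 5. The list genes that lost their calls there were Npy, Reln, Kcnc2, Robo1, Slc6a11, Cux1, Emx1 and Slc17a6. Without the dimmest 50% of genes 3 genes of those lists rose, and that filter had removed Ackr3 and Rarb, which rose in the main fit. Of all genes, from 260 to 376 fell and from 324 to 451 rose with 1 array left out, and centring each array on its median gave 392 falls and 387 rises. In the lists, leaving out 1 array gave from 8 to 15 falls and from 5 to 6 rises. Emx1 and Reln also lost their calls without some single arrays (4 of 8 and 3 of 8 kept). The cause of the other shifts was not tested.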

Other observations

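Among the excitatory neuron genes that fell were both Emx genes, homeobox genes of the pallium. Emx2 read 5.06, 5.07, 5.19 and 5.31 in mutants and 5.57, 5.55, 5.65 and 5.52 in controls (log2 difference -0.42, SE 0.07, limma adjusted p = 0.00341). Emx1, whose locus carries Cre on 1 allele in both groups, averaged 6.30 ± 0.21 in mutants and 6.79 ± 0.19 in controls (SD, n = 4 each; log2 difference -0.49, SE 0.11, limma adjusted p = 0.0233). Cux2, Cux1 and Slc17a6 fell as well, with log2 differences of -1.29, -0.35 and -0.51, and Neurod6, a factor of differentiated projection neurons, rose by 0.70. Snap25 and Rbfox3, which neurons of both kinds express, fell by 0.82 and 0.63. Rarb, a retinoic acid receptor, read 5.33, 5.71, 5.54 and 5.50 in mutants and 4.76, 4.68, 4.76 and 4.91 in controls.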
